A study of Mus musculus with 6 samples.

Results

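The STAT genes examined here encode transcription factors that carry cytokine signals from the cell surface to the nucleus. They are *Stat2*, *Stat3*, *Stat4*, *Stat5a*, *Stat5b* and *Stat6*, taken by gene symbol and not by any measured value, and they make up 6 of the 56748 genes listed in the deposited count table. That choice, like that of the gene lists below, was made with earlier results of these data known. All 6 had enough counts to be among the 14936 genes tested.

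RNA-seq was performed on murine CD4 cells of genotype WT, which the paper describes as C57BL/6 mice aged 6 to 10 weeks, to ask how transcription differs when phosphoglycerate mutase is targeted while regulatory T cells (Tregs) form. Naïve cells were stimulated through CD3 and CD28 for 3 days with IL-2 at 10 ng/mL, TGF-β at 1 ng/mL and antibodies that neutralize IFN-γ and IL-4, and the cultures were not sorted before RNA was taken. An antisense oligonucleotide (ASO), a short synthetic strand that pairs with a matching RNA, was present at 10 μM from the start, with 3 libraries labelled scrambled ASO as controls and 3 labelled *Pgam* ASO. Total counts were 17588755, 18032805 and 16231127 in scrambled ASO replicates 1, 2 and 3, and 16589933, 15860476 and 16803881 in *Pgam* ASO replicates 1, 2 and 3. Expression is given in CPM, a gene's count relative to the TMM-scaled total of its library, and a fold change is always that of the libraries labelled *Pgam* ASO over those labelled scrambled ASO. Genes were called at an adjusted p under 0.05 by the quasi-likelihood test of edgeR, which 2565 of 14936 genes met (17.2%), 1199 of them higher (8.03%) and 1366 lower (9.15%). Over all genes tested, the median log2 fold change was -0.0061.

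A receptor for these cytokines has no enzyme activity of its own and relies on bound Janus kinases (JAKs), which phosphorylate the receptor and then the STAT proteins that dock on it. Phosphorylated STATs pair, enter the nucleus and bind short palindromic DNA elements, while SOCS proteins, phosphatases and PIAS proteins end the signal. In CD4 cells STAT5 carries IL-2 signals and is required for Treg formation, STAT3 carries IL-6 and IL-21 signals toward Th17 cells, STAT4 carries IL-12 signals toward Th1 cells, STAT6 carries IL-4 signals toward Th2 cells, and STAT2 joins IRF9 in the response to type I interferon. Transcript counts do not measure phosphorylation, so the values below describe the supply of STAT transcripts and the transcripts around them, not STAT activity.

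Coordinates are those of GENCODE M21 on GRCm38. *Stat5b* (ENSMUSG00000020919, chr11:100780731-100850724, minus strand), *Stat5a* (ENSMUSG00000004043, chr11:100859351-100885169, plus strand) and *Stat3* (ENSMUSG00000004040, chr11:100885098-100939540, minus strand) lie side by side. The gap between *Stat5b* and *Stat5a* is 8626 bases, and the annotated 3′ ends of *Stat5a* and *Stat3* overlap by 72 bases on opposite strands. *Stat6* (ENSMUSG00000002147, chr10:127642986-127660957, plus strand) and *Stat2* (ENSMUSG00000040033, chr10:128270559-128292849, plus strand) are 609601 bases apart, and *Stat4* (ENSMUSG00000062939) occupies chr1:51987148-52107189 on the plus strand. Whether counting used the strand is not given in the sources used here, so reads from the stretch that *Stat5a* and *Stat3* share cannot be told apart.

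*Stat5a* and *Stat5b* are close copies of each other in their coding exons. Of the 18 coding exons in each gene, 16 have the same length in both, and 1917 of the 2063 bases in those pairs (92.9%) are identical. Exon 8 of 20 in *Stat5a* (chr11:100874339-100874490, plus strand, all coding) is the same as exon 7 of 19 in *Stat5b* (chr11:100798234-100798385, minus strand) in all 152 bases, so a read lying within it fits both genes equally. That exon, read 5′ to 3′ along the transcript, is shown on the next line, followed by the coding part of the exon that holds the start codon, the least alike of the pairs, in which 27 of 128 bases differ and capitals mark the differing bases (*Stat5a* exon 3, chr11:100861338-100861465, and *Stat5b* exon 2, chr11:100808396-100808523).
Stat5a exon 8 and Stat5b exon 7: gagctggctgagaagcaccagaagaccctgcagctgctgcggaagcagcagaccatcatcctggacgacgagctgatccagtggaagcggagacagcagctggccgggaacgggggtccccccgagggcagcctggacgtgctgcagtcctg
Stat5a exon 3, coding part: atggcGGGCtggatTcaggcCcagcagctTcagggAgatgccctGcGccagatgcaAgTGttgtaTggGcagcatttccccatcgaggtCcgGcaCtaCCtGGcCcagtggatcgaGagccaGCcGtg
Stat5b exon 2, coding part: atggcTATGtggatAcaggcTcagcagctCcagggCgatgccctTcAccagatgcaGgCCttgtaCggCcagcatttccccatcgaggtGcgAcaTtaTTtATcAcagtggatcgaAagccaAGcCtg

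Counted over whole transcripts in stretches of 31 bases, the pair shared 836 stretches, which is 11.5% of those in *Stat5a* and 15.1% of those in *Stat5b*. Counts of *Stat5a* and *Stat5b* are therefore uncertain to the extent that reads from shared stretches were divided between them. *Stat4* shared 23.7% of its stretches with Gm28177, an overlapping transcript on the same strand that had at most 10 counts in any library. The share of stretches found in any other gene was 1.89% for *Stat2*, 2.36% for *Stat3* and 0.226% for *Stat6*.

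The labels were checked against their targets first. *Pgam1* stood at 599.6, 478 and 707 CPM in the scrambled ASO replicates and at 658, 661 and 707 CPM in the *Pgam* ASO replicates, with a log2 fold change of 0.18 ± 0.13 (SE) and an edgeR adjusted p of 0.331. *Pgam2*, the muscle form of the enzyme, stood at 5.23, 6.75 and 2.85 CPM against 2.98, 2.69 and 2.60 CPM, giving a log2 fold change of -0.84 ± 0.31 at an edgeR adjusted p of 0.0854. The groups overlapped for both genes, so transcript levels of these targets do not settle the labels, protein was not analysed here, and the groups are referred to throughout by what the libraries are labelled. *Foxp3*, which encodes the factor that defines Tregs, was at 282, 371 and 222 CPM in the scrambled ASO replicates and at 89.7, 109 and 131 CPM in the *Pgam* ASO replicates. It fell by 1.41 on the log2 scale (SE 0.20, edgeR adjusted p = 0.00567), with no overlap.

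The cell type named in the labels was checked against marker genes. The summed level of the 5 CD4 T cell markers was 2030, 2115 and 1921 CPM in the libraries labelled scrambled ASO and 1733, 1763 and 1890 CPM in those labelled *Pgam* ASO, with *Cd4* the most abundant. *Trac* was the marker of this list that passed the test, at -0.30 on the log2 scale (edgeR adjusted p = 0.0416). Among the 4 Treg markers *Il2ra* was the most abundant, with means of 1929 and 2768 CPM. The summed level, which mostly reflects *Il2ra*, was 2786, 2682 and 3033 CPM against 3485, 3522 and 3128 CPM. *Il2ra* was called higher and *Foxp3* and *Ikzf2* lower, where 17.2% of all tested genes were called. *Ctla4* had a log2 fold change of -0.28 without a call (edgeR adjusted p = 0.0575).

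Markers of other cells were low in every library. The 2 CD8 T cell markers summed to between 10.8 and 15.7 CPM, led by *Cd8b1*, and *Cd8a* rose by 1.12 on the log2 scale (edgeR adjusted p = 0.0286), while *Cd8b1* had -0.20 (edgeR adjusted p = 0.454) with overlapping groups. The 4 B cell markers summed to between 5.64 and 10.4 CPM, led by *Cd79a*, and the 4 myeloid markers to between 1.30 and 3.02 CPM, led by *Lyz2*. The 3 NK cell markers reached at most 0.594 CPM, led by *Klre1* and with *Klrb1c* at 0 in every library, and the 4 dendritic cell markers reached at most 1.28 CPM, led by *Flt3* and with *Siglech* at 0 in every library. The 3 erythroid markers, led by *Alas2*, summed to between 1.30 and 2.59 CPM. The 4 mast cell and basophil markers, led by *Cpa3*, moved with the labels, at 1.07, 1.89 and 1.36 CPM in the scrambled ASO replicates and 4.10, 3.98 and 2.96 CPM in the *Pgam* ASO replicates, but only *Cpa3* had enough counts to be tested. Its log2 fold change was 1.09, without overlap and without a call (edgeR adjusted p = 0.0526). The part of these cells in the differences described below was not tested.

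None of the 6 STAT genes was called by edgeR, against 17.2% of all tested genes. At an unadjusted p under 0.05 the count was 2 of 6, *Stat4* and *Stat5b*. That threshold is looser. The share of all tested genes that met it is above 17.2% but was not counted, so 2 of 6 cannot be set against 17.2%. DESeq2 and limma-voom each called 0 of 6 at an adjusted p under 0.05. In 4 of 6, no library of either label lay within the range of the other label, which was also so for 39.5% of all tested genes. The median log2 fold change of the 6 was -0.10. The calls depended on the libraries included, since 2 of 6 passed when scrambled ASO replicate 3 was left out. In that run 3484 of 15508 tested genes were called, where the main analysis called 2565 of 14936. In cultures of mixed cells, fewer cells of a type and less RNA per cell cannot be told apart.

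**Figure D1:**
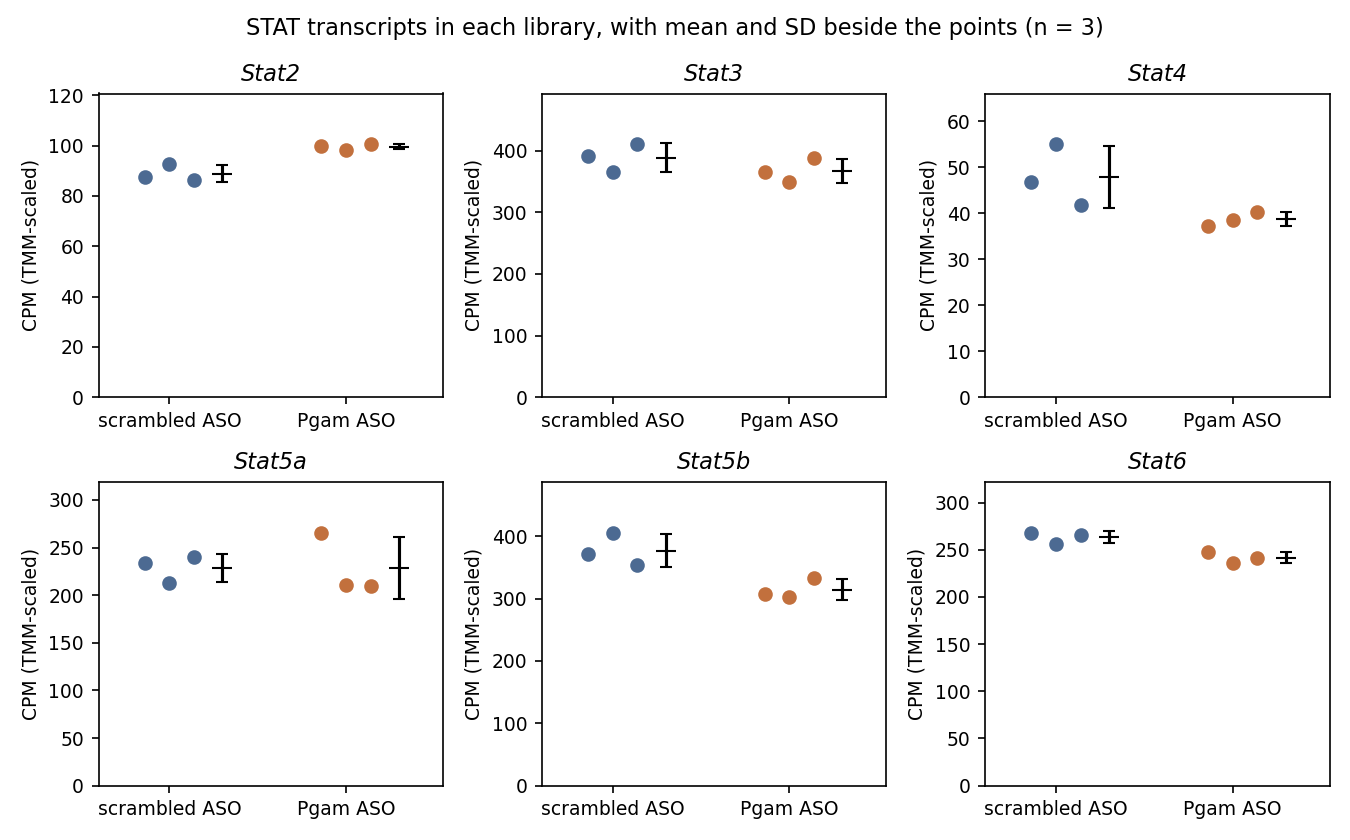
TMM-scaled CPM of each STAT gene (vertical axis, starting at 0) in every library, with blue points for the 3 libraries labelled scrambled ASO, orange points for the 3 labelled *Pgam* ASO, and the mean with its SD beside each group. *Stat2* points labelled *Pgam* ASO lie above the others, those of *Stat4*, *Stat5b* and *Stat6* lie below, and those of *Stat3* and *Stat5a* overlap.

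*Stat5b* encodes a STAT5 protein, the main one in IL-2 signalling of T cells. Its level was 371, 406 and 354 CPM in scrambled ASO replicates 1, 2 and 3 and 308, 303 and 333 CPM in *Pgam* ASO replicates 1, 2 and 3. Every library labelled *Pgam* ASO lay below every library labelled scrambled ASO, with scrambled ASO replicate 2 the highest. The means were 377 ± 26.6 and 315 ± 16.4 CPM (SD, n = 3 each). The log2 fold change was -0.26 ± 0.09 (SE), with a 95% interval of -0.45 to -0.07 and an edgeR adjusted p of 0.0601. Without scrambled ASO replicate 3 it was -0.30 with an edgeR adjusted p of 0.0395, and with library size as the only scaling -0.30 with an adjusted p of 0.0481, within a range of 0.0395 to 0.22 over all settings.

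*Stat5a* encodes the other STAT5 protein. Its level was 234, 212 and 239.8 CPM in the scrambled ASO replicates and 266, 210.3 and 209.8 CPM in the *Pgam* ASO replicates. The groups overlapped, with *Pgam* ASO replicate 1 the highest of the 6 libraries. The means were 229 ± 14.4 and 229 ± 32.1 CPM (SD, n = 3 each). The log2 fold change was 0.00017, with a 95% interval of -0.24 to 0.24 and an edgeR adjusted p of 0.999, and its sign changed with the scaling, at -0.04 by library size alone, and with the libraries included, at -0.12 without *Pgam* ASO replicate 1. With the counts of *Stat5a* and *Stat5b* added together before the test, the log2 fold change was -0.16 (SE 0.08, edgeR adjusted p = 0.183).

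*Stat3* encodes the STAT of the IL-6, IL-10 and IL-21 receptors. Its level was 391, 365 and 411 CPM in the scrambled ASO replicates and 365, 349.6 and 388 CPM in the *Pgam* ASO replicates. The groups overlapped, and their means were 389 ± 23.0 and 368 ± 19.5 CPM (SD, n = 3 each). The log2 fold change was -0.08 ± 0.08 (SE), with a 95% interval of -0.27 to 0.11 and an edgeR adjusted p of 0.529. It was -0.04 without scrambled ASO replicate 3 and -0.12 without scrambled ASO replicate 2.

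*Stat4* encodes the STAT of the IL-12 receptor. Its level was 46.8, 55.0 and 41.8 CPM in the scrambled ASO replicates and 37.2, 38.5 and 40.2 CPM in the *Pgam* ASO replicates, from counts of 599 to 1018. The groups did not overlap, with scrambled ASO replicate 2 the highest library and replicate 3 the closest to the other label. The means were 47.9 ± 6.65 and 38.6 ± 1.52 CPM (SD, n = 3 each). The log2 fold change was -0.31 ± 0.11 (SE), with a 95% interval of -0.56 to -0.06 and an edgeR adjusted p of 0.0819. Without scrambled ASO replicate 3 it was -0.39 with an edgeR adjusted p of 0.0307, without scrambled ASO replicate 2 it was -0.20 with 0.256, and over all settings the adjusted p ran from 0.0307 to 0.256.

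*Stat6* encodes the STAT of the IL-4 and IL-13 receptors. Its level was 268, 256 and 266 CPM in the scrambled ASO replicates and 248, 236 and 241 CPM in the *Pgam* ASO replicates. The groups did not overlap, and their means were 263 ± 6.45 and 242 ± 6.08 CPM (SD, n = 3 each). The log2 fold change was -0.12 ± 0.08 (SE), with a 95% interval of -0.29 to 0.04 and an edgeR adjusted p of 0.268.

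*Stat2* encodes the STAT that forms the ISGF3 complex with IRF9. Its level was 87.6, 92.6 and 86.4 CPM in the scrambled ASO replicates and 99.9, 98.4 and 100.6 CPM in the *Pgam* ASO replicates. It was the gene of the 6 in which the libraries labelled *Pgam* ASO lay above the others without overlap. The means were 88.9 ± 3.32 and 99.6 ± 1.14 CPM (SD, n = 3 each). The log2 fold change was 0.16 ± 0.08 (SE), with a 95% interval of -0.0046 to 0.33 and an edgeR adjusted p of 0.153.

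These intervals limit how far the STAT transcripts can have differed between the labels. The lowest bound among the 6 was -0.56, for *Stat4*, and the highest was 0.33, for *Stat2*, on the log2 scale. A p that misses the threshold does not show that the levels were equal. Added over the 6 genes, the level was 1398, 1387 and 1398 CPM in the scrambled ASO replicates and 1324, 1235 and 1314 CPM in the *Pgam* ASO replicates, without overlap. *Stat2* made up 6.26%, 6.68% and 6.18% of the counts of the 6 genes in the scrambled ASO replicates and 7.54%, 7.97% and 7.66% in the *Pgam* ASO replicates.

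Levels of different STAT genes were compared per kilobase of the longest protein-coding transcript, since longer transcripts give more counts. In the libraries labelled scrambled ASO, the order was *Stat5b* at 72.3 ± 5.10, *Stat6* at 69.8 ± 1.71, *Stat3* at 64.3 ± 3.80, *Stat5a* at 58.8 ± 3.71, *Stat2* at 20.2 ± 0.756 and *Stat4* at 16.1 ± 2.23 CPM per kilobase (SD, n = 3). Libraries of neighbours in that order overlapped for the first 4 genes, whereas *Stat5a* and *Stat2*, and *Stat2* and *Stat4*, did not overlap. In the libraries labelled *Pgam* ASO, the order was *Stat6* at 64.0 ± 1.61, *Stat3* at 60.9 ± 3.22, *Stat5b* at 60.4 ± 3.14, *Stat5a* at 58.8 ± 8.27, *Stat2* at 22.7 ± 0.259 and *Stat4* at 13.0 ± 0.510 CPM per kilobase. The first 4 again overlapped with their neighbours, and *Stat2* and *Stat4* again lay far below them and apart from each other. With the length of all merged exons in place of the longest transcript, *Stat5b* led in both groups, at 68.0 and 56.8 CPM per kilobase, and *Stat3* and *Stat5a* stood lower, at 40.8 and 32.0 in the libraries labelled scrambled ASO, so the order of the upper 4 depends on the transcript assumed.

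The balance of STAT3 to STAT5 transcripts was examined because STAT3 and STAT5 act in opposite directions at Th17 genes. The log2 ratio of *Stat3* counts to *Stat5a* plus *Stat5b* counts within a library was -0.63, -0.76 and -0.53 in the scrambled ASO replicates and -0.65, -0.55 and -0.48 in the *Pgam* ASO replicates. The groups overlapped, and the means, -0.64 ± 0.12 and -0.56 ± 0.08 (SD, n = 3 each), differed by 0.08 (exact permutation test, two-sided, p = 0.5). The log2 ratio of *Stat5a* to *Stat5b* was -0.67, -0.94 and -0.56 in the scrambled ASO replicates and -0.21, -0.53 and -0.67 in the *Pgam* ASO replicates. It also overlapped, and the means, -0.72 ± 0.19 and -0.47 ± 0.23, differed by 0.25 (exact permutation test, two-sided, p = 0.2). With 3 libraries against 3, that test cannot give a p under 0.1. Without *Pgam* ASO replicate 1 the difference in the second ratio was 0.12, and without scrambled ASO replicate 2 the difference in the first was 0.02. Against *Stat5a* alone the *Stat3* ratio differed by -0.07, and against *Stat5b* alone by 0.18.

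**Figure D2:**
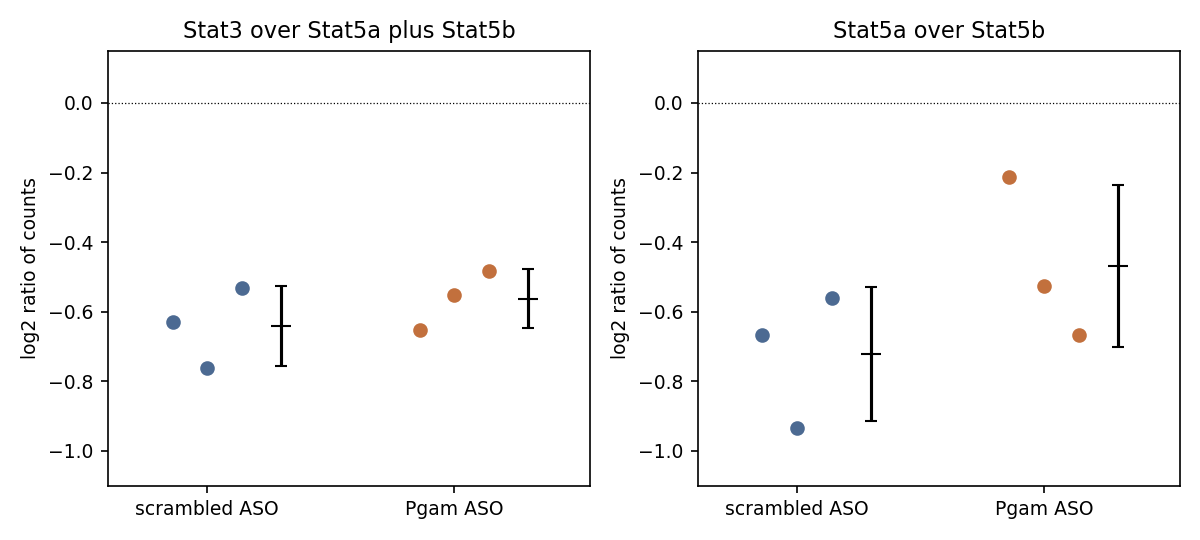
Log2 ratio of counts within each library (vertical axis), for *Stat3* over the sum of *Stat5a* and *Stat5b* on the left and *Stat5a* over *Stat5b* on the right, with a point for each library and the mean and SD beside each group of 3. Both ratios are below 0 in all 6 libraries and overlap between the labels.

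Across the 6 libraries, log2 CPM of *Stat4* and *Stat5b* varied together, with a Pearson r of 0.96, and *Stat2* and *Stat6* varied in opposite directions, with r of -0.92. *Stat5a* and *Stat5b* had an r of -0.23. Among 6183 tested genes with a mean log2 CPM of at least 5, those most like *Stat5b* were *Fam169b*, *Malat1* and *Dyrk2* (r of at least 0.997), and those most like *Stat4* were *Ndrg3*, *Arhgap25* and *C2cd3* (r of at least 0.998). Many genes were nearly as close, with 801 at an r of at least 0.9 to *Stat5b* and 740 to *Stat4*. The 3 most like *Stat6* were *Dnajc1*, *Ier2* and *Hmg20b* (96 genes at 0.9 or more), and the 3 most like *Stat2* were *Dcaf15*, *Srrt* and *Cotl1* (89 genes). *Stat3* was most like *Ptch1*, *Smim7* and *Plekhg5* (22 genes), and *Stat5a* most like *Pml*, *Zfp507* and *Extl3* (29 genes). These correlations describe 6 libraries that share 2 labels, and high values are common for genes that differ between the labels.

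Of the 4 JAK kinases, all tested, 1 was called lower and 0 higher, where 9.15% of all tested genes were called lower, and the median log2 fold change was -0.19. The count was 0 with replicate number as a block. It was also 0 without scrambled ASO replicate 1 or 2 or *Pgam* ASO replicate 1 or 2, and 2, both lower, without *Pgam* ASO replicate 3. *Jak1*, a kinase of most receptors considered here, stood at 424, 491 and 360.2 CPM in the scrambled ASO replicates and 310.1, 328 and 334 CPM in the *Pgam* ASO replicates. It fell by 0.39 on the log2 scale (SE 0.11, edgeR adjusted p = 0.0381), without overlap between the groups. *Jak3*, the partner of the common gamma chain and the most abundant JAK by CPM, had 613, 662 and 607 CPM against 511, 508 and 587 CPM, giving a log2 fold change of -0.23 at an edgeR adjusted p of 0.0929. *Jak2* and *Tyk2*, which serve the IL-12 and IL-23 receptors, had log2 fold changes of -0.14 and -0.02, and adjusted p by edgeR was 0.238 and 0.89.

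Of the 9 genes for STAT phosphatases and PIAS inhibitors, 1 was called higher and 0 lower, where 8.03% of all tested genes were called higher, and the median log2 fold change was 0.03. The count was 0 with replicate number as a block and in 4 of the 6 runs that left out a library. It was 3, 1 higher and 2 lower, without scrambled ASO replicate 3. With DESeq2, library size alone, either change of the count filter or omission of *Pgam* ASO replicate 3 it was 2, 1 higher and 1 lower. *Ptpn1*, whose product PTP1B removes phosphate from JAKs, was at 391, 322 and 422 CPM in the scrambled ASO replicates and 486, 478 and 478 CPM in the *Pgam* ASO replicates, a rise of 0.35 on the log2 scale (SE 0.10, edgeR adjusted p = 0.0442). *Ptpn2* and *Ptpn11*, which encode phosphatases of the same class, differed by 0.24 and 0.23 on the log2 scale, with adjusted p by edgeR of 0.12 and 0.105, and *Ptpn6* had 0.03 with 0.863. *Ptprc*, which encodes CD45 and was the most abundant gene of this list by CPM, had -0.38 on that scale with an edgeR adjusted p of 0.0511. The PIAS genes, whose products hold STATs back in the nucleus, did not pass, with log2 fold changes of -0.29 for *Pias1*, -0.06 for *Pias2*, -0.05 for *Pias3* and 0.17 for *Pias4*.

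SOCS genes, some of which STATs themselves induce as feedback, split by member. Of 8 tested, 2 were called higher and 2 lower, where 17.2% of all tested genes were called, with a median log2 fold change of 0.17. *Socs1*, an inhibitor of JAK activity, was at 162, 105 and 169 CPM in the scrambled ASO replicates and 271, 253 and 237 CPM in the *Pgam* ASO replicates, a rise of 0.80 on the log2 scale (SE 0.16, edgeR adjusted p = 0.0147). *Cish*, induced by STAT5, was at 383, 309.8 and 380.2 CPM against 460.2, 447 and 467 CPM, a rise of 0.36 (SE 0.10, edgeR adjusted p = 0.033). *Socs3*, which blocks the IL-6 receptor chain gp130, was at 96.3, 77.1 and 69.3 CPM against 44.8, 45.4 and 66.4 CPM, and fell by 0.63 on the log2 scale (SE 0.17, edgeR adjusted p = 0.0375). *Socs5* was at 19.7, 18.1 and 17.2 CPM against 7.02, 8.53 and 10.2 CPM, and fell by 1.09 (SE 0.16, edgeR adjusted p = 0.0034). None of these 4 genes overlapped between the groups, and 5 of the 8 in the list did not, where 39.5% of all tested genes did not overlap. *Socs2*, *Socs4*, *Socs6* and *Socs7* had log2 fold changes of 0.23, 0.11, 0.13 and 0.20 and were not called. The 4 calls became 2 with replicate number as a block, and also without scrambled ASO replicate 1 or 2 or *Pgam* ASO replicate 1. They became 1 without *Pgam* ASO replicate 2.

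**Figure D3:**
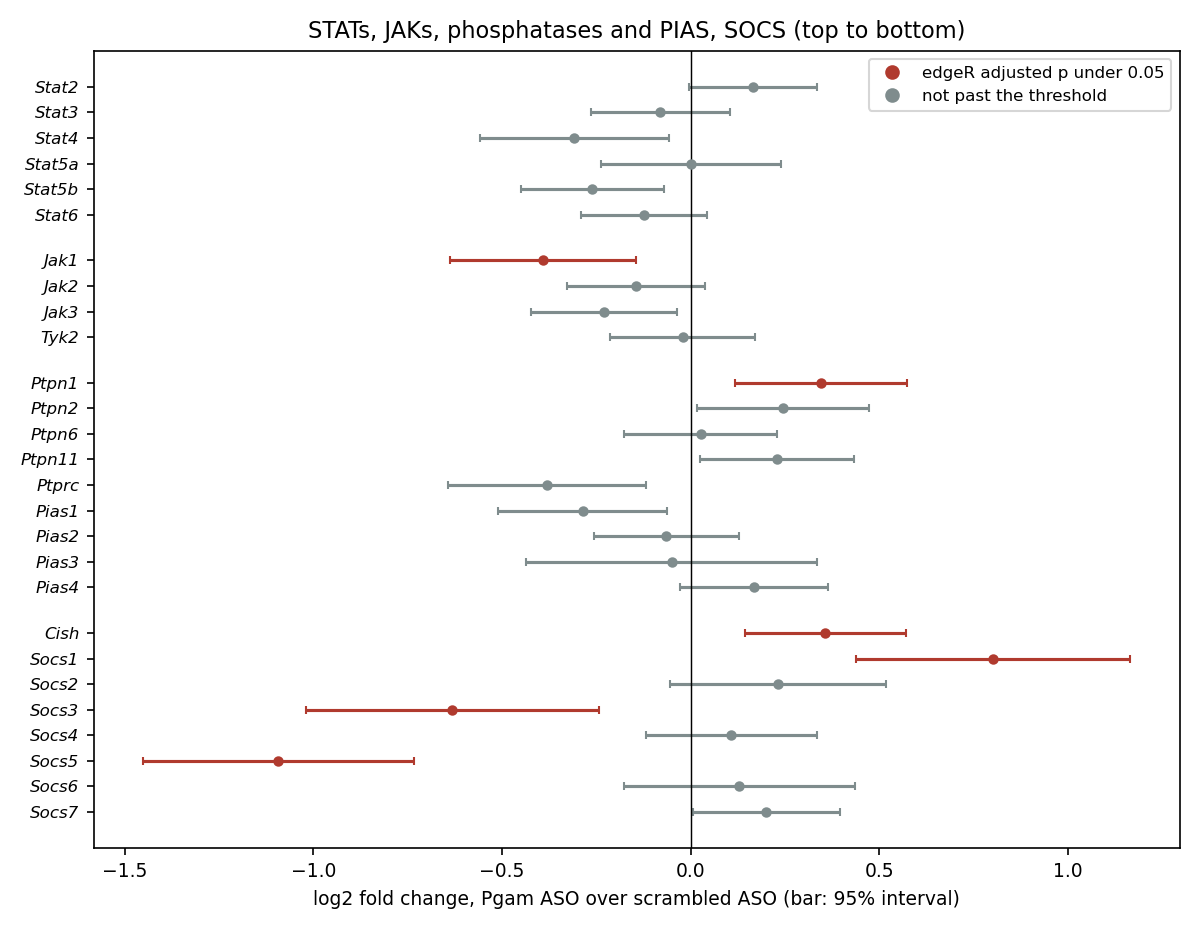
Log2 fold change (horizontal axis) with its 95% interval for each STAT, JAK, phosphatase or PIAS, and SOCS gene, in that order from top to bottom, with red for an edgeR adjusted p under 0.05. All 6 STAT points are grey and lie between -0.31 and 0.16, and *Socs5* and *Socs1* lie farthest from 0, at -1.09 and 0.80.

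Of 13 genes listed for cytokines that signal through STATs, 8 had enough counts to be tested, 6 were called higher and 0 lower (8.03% of all tested genes were called higher), and the median log2 fold change of the 8 was 2.45. *Lif*, a ligand that uses STAT3, was the most abundant by CPM, at 120.0, 75.9 and 145 CPM in the scrambled ASO replicates and 626, 562 and 431 CPM in the *Pgam* ASO replicates, a rise of 2.25 on the log2 scale (SE 0.25, edgeR adjusted p = 0.00287). *Il4*, whose product signals through STAT6, was at 2.08, 1.08 and 1.73 CPM against 12.7, 12.1 and 7.46 CPM, a rise of 2.72 (SE 0.30, edgeR adjusted p = 0.000953). *Il2*, whose product signals through STAT5 and was also added to the medium, was at 2.42, 0.864 and 1.30 CPM against 30.5, 17.3 and 12.1 CPM, a rise of 3.70 (SE 0.46, edgeR adjusted p = 0.00335). *Il13*, *Il21* and *Il9* rose by 3.77, 2.53 and 2.37 on the log2 scale, and adjusted p by edgeR was 0.0131, 0.0157 and 0.022. The groups did not overlap for these 6 genes, nor for 7 of the 8 tested in all, where 39.5% of all tested genes did not overlap. For each of the 6, *Pgam* ASO replicate 3 was the lowest library of its label. *Osm* and *Il10* had log2 fold changes of 0.48 and 0.38 and were not called, with adjusted p by edgeR of 0.0556 and 0.493, and *Il10* overlapped between the groups. The 5 ligand genes removed by the low-count filter, *Il6*, *Il7*, *Il15*, *Il22* and *Il27*, had at most 23 counts in any library. Counts of *Il22* were 4, 2 and 4 in the scrambled ASO replicates and 23, 17 and 5 in the *Pgam* ASO replicates, and those of *Il6* were 1, 2 and 2 against 9, 3 and 7. In place of 6, the ligand genes called were 8 of 13 with no filter, 7 with DESeq2 or limma-voom and 3 without scrambled ASO replicate 1, all of them higher.

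Receptor chains moved in both directions. Of the 6 chains that use STAT5, 1 was called higher and 2 lower, where 17.2% of all tested genes were called, with a median log2 fold change of -0.45 and no overlap between the groups for any of the 6, against 39.5% of all tested genes without overlap. *Il2ra*, the high-affinity IL-2 receptor chain, was at 1946, 1627 and 2216 CPM in the scrambled ASO replicates and 2908, 2900.1 and 2495 CPM in the *Pgam* ASO replicates, a rise of 0.52 on the log2 scale (SE 0.12, edgeR adjusted p = 0.0185). *Il7r*, the IL-7 receptor chain, was at 267, 363 and 237 CPM against 108, 134 and 165 CPM, and fell by 1.09 (SE 0.19, edgeR adjusted p = 0.0116). *Il15ra* fell by 0.70 (SE 0.21, edgeR adjusted p = 0.0439). *Il2rb*, *Il2rg* and *Il9r* had log2 fold changes of 0.25, -0.19 and -0.93, and adjusted p by edgeR was 0.0743, 0.108 and 0.103. Without *Pgam* ASO replicate 2 the chains called were 0 of 6, and without scrambled ASO replicate 1 they were 1 of 6.

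Of the 9 chains that use STAT3, 7 were tested, 1 was called higher and 2 lower, where 17.2% of all tested genes were called, and the median log2 fold change was -0.50. The count ran from 1, without scrambled ASO replicate 1 or *Pgam* ASO replicate 1 or 2, where it was higher, to 5, 1 higher and 4 lower, with DESeq2, with either change of the count filter or without scrambled ASO replicate 3. *Il10ra*, the IL-10-binding chain, was at 55.9, 47.4 and 60.1 CPM in the scrambled ASO replicates and 102, 110.2 and 117 CPM in the *Pgam* ASO replicates, a rise of 1.01 on the log2 scale (SE 0.10, edgeR adjusted p = 0.000731). *Il10rb*, its partner chain, fell by 0.50 (SE 0.14, edgeR adjusted p = 0.0375). *Il6ra*, the IL-6-binding chain, was at 130.0, 159.8 and 93.0 CPM against 70.6, 68.8 and 78.6 CPM, and fell by 0.81 (SE 0.17, edgeR adjusted p = 0.0176). *Il6st*, which encodes gp130, was at 71.0, 110.0 and 49.9 CPM against 14.8, 20.5 and 36.6 CPM, with a log2 fold change of -1.68 (SE 0.43) that did not pass, at an edgeR adjusted p of 0.0502. *Il21r*, *Il27ra* and *Il23r* had log2 fold changes of 0.14, -0.48 and -1.25 and did not pass. *Lifr* and *Osmr* had at most 2 counts in any library and were not tested.

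The other receptors have fewer chains. *Il4ra*, the chain that docks STAT6, was at 398, 341 and 406 CPM in the scrambled ASO replicates and 793, 743 and 631 CPM in the *Pgam* ASO replicates, a rise of 0.92 on the log2 scale (SE 0.11, edgeR adjusted p = 0.0012), while *Il13ra1* had at most 3 counts in any library and was not tested. Of the IL-12 receptor chains that use STAT4, *Il12rb1* rose by 0.56 (SE 0.15, edgeR adjusted p = 0.0363), and *Il12rb2* had a log2 fold change of -0.11 with an edgeR adjusted p of 0.767. The *Il12rb1* call was lost with replicate number as a block (edgeR adjusted p = 0.0519). It was also lost without scrambled ASO replicate 1 or 2 or *Pgam* ASO replicate 1 or 2. Both chains of the type I interferon receptor, which uses STAT2, were called lower (9.15% of all tested genes were), and 1 of them without *Pgam* ASO replicate 1 or 2. *Ifnar1* was at 159, 200.4 and 143 CPM in the scrambled ASO replicates and 73.9, 79.4 and 99.0 CPM in the *Pgam* ASO replicates, and fell by 0.99 (SE 0.14, edgeR adjusted p = 0.00336). *Ifnar2* was at 46.9, 63.8 and 44.9 CPM against 30.7, 34.3 and 35.7 CPM, and fell by 0.63 (SE 0.14, edgeR adjusted p = 0.0183). *Ifnlr1*, a chain of the type III interferon receptor, had at most 9 counts in any library and was not tested.

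Genes known as STAT targets were described next, and short stretches of their promoters are shown to make the STAT-binding letters visible. The 250 bases before each start were searched on both strands in 32851 mouse promoters from RefSeq (GRCm38.p6), in which all 6 STAT genes had an entry. The motifs were TTCNNNGAA, the palindrome that most STATs bind, TTCNNNNGAA, the wider form that STAT6 prefers, and GAAANNGAAA, the core of the element bound by ISGF3. They occurred in 7.02%, 5.85% and 2.98% of all promoters, and matches of different motifs can overlap. Below, capitals mark a motif or, on the minus strand of the gene, its reverse complement, and every sequence is written 5′ to 3′ in the direction of the gene. A match is a description of letters and not evidence of binding.
Il4, TTCNNNNGAA, chr11:53618803-53618852, minus strand: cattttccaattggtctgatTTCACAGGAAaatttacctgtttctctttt
Foxp3, TTCNNNGAA, chrX:7580324-7580372, plus strand: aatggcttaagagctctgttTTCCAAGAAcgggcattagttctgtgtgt
Socs3, TTCNNNGAA, chr11:117969492-117969540, minus strand: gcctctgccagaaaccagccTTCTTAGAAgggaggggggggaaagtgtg
Isg15, GAAANNGAAA, chr4:156200861-156200910, minus strand: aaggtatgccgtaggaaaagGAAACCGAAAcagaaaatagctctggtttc
Bst2, GAAANNGAAA, chr8:71537567-71537616, minus strand: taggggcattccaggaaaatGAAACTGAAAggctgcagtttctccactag
Stat2, GAAANNGAAA reversed, chr10:128270256-128270305, plus strand: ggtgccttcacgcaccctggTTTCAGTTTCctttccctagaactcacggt

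Among the STAT genes themselves, TTCNNNGAA was found in the promoters of 0 of 6, TTCNNNNGAA in 1 (*Stat2*), and GAAANNGAAA in 2 (*Stat2* and *Stat4*). The *Stat2* match shown starts 222 bases before the RefSeq start used in the promoter table, from which all distances are counted and which can differ from the start in GENCODE, and a TTCNNNNGAA match begins 210 bases before it. These letters say nothing of whether a factor was bound there in these cultures.

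Of the 5 STAT6 targets, all 5 were called higher and 0 lower, where 8.03% of all tested genes were called higher, with a median log2 fold change of 0.92 beside -0.0061 for all tested genes. None of the 5 overlapped between the groups, which was also so for 39.5% of all tested genes. The count fell to 2 without scrambled ASO replicate 1 or *Pgam* ASO replicate 2, and to 3 without scrambled ASO replicate 2 or *Pgam* ASO replicate 1. *Il4* and *Il4ra* were described above and are counted there too. This list was chosen with earlier results of these data known, so its count is a description and not a test. *Gata3*, the Th2 master factor, was at 47.5, 62.2 and 35.8 CPM in the scrambled ASO replicates and 113, 82.9 and 75.2 CPM in the *Pgam* ASO replicates, a rise of 0.89 on the log2 scale (SE 0.22, edgeR adjusted p = 0.0321). *Il24*, a cytokine of the IL-10 family, rose by 3.26 (SE 0.55, edgeR adjusted p = 0.0187), and *Nfil3*, a transcription factor that IL-4 induces, rose by 0.53 (SE 0.13, edgeR adjusted p = 0.0242). The TTCNNNNGAA match in the *Il4* promoter, shown above, begins 167 bases before the RefSeq start, and 1 of the 4 list genes with a promoter entry had this motif. The summed level of mast cell and basophil markers, given above, was also higher in every library labelled *Pgam* ASO, and its part in this result was not tested.

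Of the 8 STAT5 targets, 3 were called higher and 1 lower, where 17.2% of all tested genes were called, with a median log2 fold change of 0.29. The count fell to 2 without scrambled ASO replicate 2 or *Pgam* ASO replicate 1 or 3, and to 1, called lower, without scrambled ASO replicate 1 or *Pgam* ASO replicate 2. *Cish*, *Il2ra* and *Foxp3* were described above, and *Foxp3* is the member that fell. *Bcl2*, a survival gene, was at 166, 155 and 187 CPM in the scrambled ASO replicates and 189, 260.0 and 315 CPM in the *Pgam* ASO replicates, a rise of 0.59 on the log2 scale (SE 0.17, edgeR adjusted p = 0.0419). *Socs2*, *Pim1*, *Osm* and *Ccnd2* did not pass, with log2 fold changes of 0.23, -0.24, 0.48 and -0.07. A TTCNNNGAA match was found in 1 of the 5 genes with a promoter entry, in *Foxp3*, where it begins 139 bases before the RefSeq start, which lies inside the gene as annotated in GENCODE.

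Of the 10 STAT3 targets, 3 were called higher and 4 lower, where 17.2% of all tested genes were called, with a median log2 fold change of -0.45. Without *Pgam* ASO replicate 2 the count fell to 3, 1 higher and 2 lower. The cytokine genes *Il17a* and *Il21* and the factor gene *Batf* were higher. *Il17a*, the Th17 cytokine, was at 2.93, 3.29 and 2.91 CPM in the scrambled ASO replicates and 19.6, 10.3 and 7.28 CPM in the *Pgam* ASO replicates, a rise of 2.02 on the log2 scale (SE 0.34, edgeR adjusted p = 0.0073), and *Batf* rose by 0.75 (SE 0.14, edgeR adjusted p = 0.0108). The feedback gene *Socs3* and the factor genes *Rora*, *Bcl3* and *Maf* were lower. *Rora*, a Th17 nuclear receptor and the most abundant gene of the list by CPM, was at 100.4, 97.3 and 96.7 CPM against 52.9, 63.7 and 72.2 CPM, and fell by 0.64 (SE 0.11, edgeR adjusted p = 0.00713). *Maf* fell by 0.61 (SE 0.11, edgeR adjusted p = 0.00779) and *Bcl3* by 0.60 (SE 0.09, edgeR adjusted p = 0.00366). The members not called had log2 fold changes from -1.25 to 0.38. *Socs3* was the 1 gene with TTCNNNGAA among 8 with a promoter entry.

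Of the 7 STAT4 targets, 6 were tested and edgeR called 0, with a median log2 fold change of -0.02. At an unadjusted p under 0.05 the count was 1, *Ifng*. The share of all tested genes that met this looser threshold is above 17.2% but was not counted, so that count cannot be set against 17.2%. DESeq2 and limma-voom each called 0. Of the other settings, no filter on low counts called 1 lower and omission of *Pgam* ASO replicate 3 called 1 higher. In the main analysis 17.2% of all tested genes were called at an adjusted p under 0.05. *Ifng*, the Th1 cytokine, was at 7.54, 3.02 and 6.94 CPM in the scrambled ASO replicates and 27.0, 13.9 and 7.69 CPM in the *Pgam* ASO replicates, with a log2 fold change of 1.47 (SE 0.52, edgeR adjusted p = 0.0953). *Furin*, the most abundant by CPM, and *Tbx21*, the Th1 master factor, had log2 fold changes of 0.05 and 0.23, *Il18rap* and *Il18r1* had -0.09 and -0.34, and *Hlx* had at most 5 counts in any library. TTCNNNGAA was found in 3 of the 7 genes with a promoter entry, *Ifng*, *Il12rb2* and *Il18r1*, none of which was called.

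Of the 15 targets of STAT2 and ISGF3, 2 were called higher and 0 lower, where 8.03% of all tested genes were called higher, with a median log2 fold change of -0.16. The count was 1 without scrambled ASO replicate 1 or *Pgam* ASO replicate 1 or 2. It was 5 with no filter on low counts, 4 higher and 1 lower, and 3 without *Pgam* ASO replicate 3, 2 higher and 1 lower. *Isg15*, a ubiquitin-like protein gene, was at 18.2, 14.4 and 18.2 CPM in the scrambled ASO replicates and 29.3, 30.8 and 28.8 CPM in the *Pgam* ASO replicates, a rise of 0.81 on the log2 scale (SE 0.12, edgeR adjusted p = 0.00391). *Bst2*, the tetherin gene and the most abundant of the list by CPM, was at 75.6, 56.3 and 96.4 CPM against 139.9, 121 and 118 CPM, a rise of 0.73 (SE 0.17, edgeR adjusted p = 0.0242). The other 13 had log2 fold changes from -1.14 to 0.90, and 4 of the 15 did not overlap between the groups, as 39.5% of all tested genes did not. GAAANNGAAA was found in 6 of the 11 genes with a promoter entry, and both called genes had it. The other 4 with these letters were *Ifit1*, *Ifit3*, *Oas1a* and *Rsad2*, with log2 fold changes of -1.14, -0.99, 0.90 and -0.30 and no call, so the letters were present in genes that rose and in genes that did not pass.

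**Figure D4:**
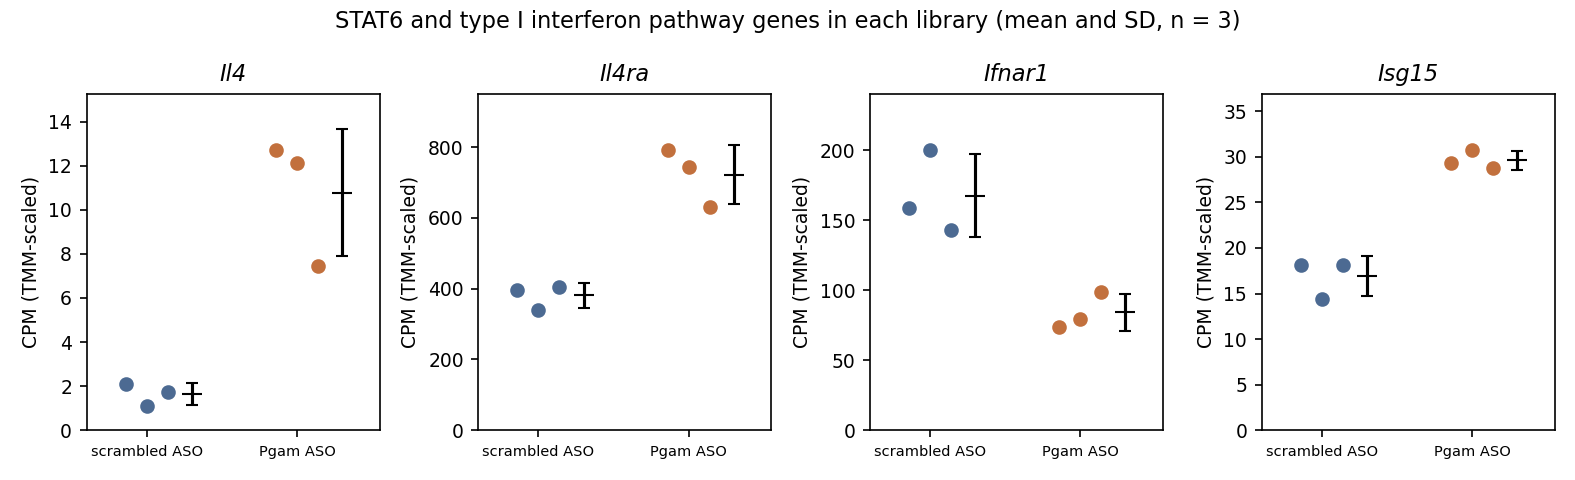
TMM-scaled CPM (vertical axis, starting at 0) of *Il4*, *Il4ra*, *Ifnar1* and *Isg15* in every library, blue for scrambled ASO and orange for *Pgam* ASO labels, with the mean and SD of each group of 3. In *Il4*, *Il4ra* and *Isg15* the orange points lie above the blue without overlap, and in *Ifnar1* they lie below.

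Of the 7 partner factors that STATs work with, 1 was called higher and 1 lower, where 17.2% of all tested genes were called, with a median log2 fold change of -0.11. The count ran from 0, without *Pgam* ASO replicate 2, to 5, 2 higher and 3 lower, without scrambled ASO replicate 3. *Batf* is the member that rose. *Crebbp*, which encodes an acetyltransferase recruited by STATs, was at 88.0, 111 and 72.9 CPM in the scrambled ASO replicates and 65.9, 59.3 and 70.7 CPM in the *Pgam* ASO replicates, and fell by 0.47 on the log2 scale (SE 0.14, edgeR adjusted p = 0.046). Its relative *Ep300* had a log2 fold change of -0.28 with an edgeR adjusted p of 0.0592. *Irf4*, the partner of BATF and the most abundant of the list by CPM, was at 559, 388 and 613 CPM against 970.1, 834 and 654 CPM, giving a log2 fold change of 0.66 at an edgeR adjusted p of 0.0507. *Irf9*, the partner of STAT2, had -0.24 with an adjusted p of 0.173, and *Nmi* and *Ncoa1* had 0.20 and -0.11.

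**Figure D5:**
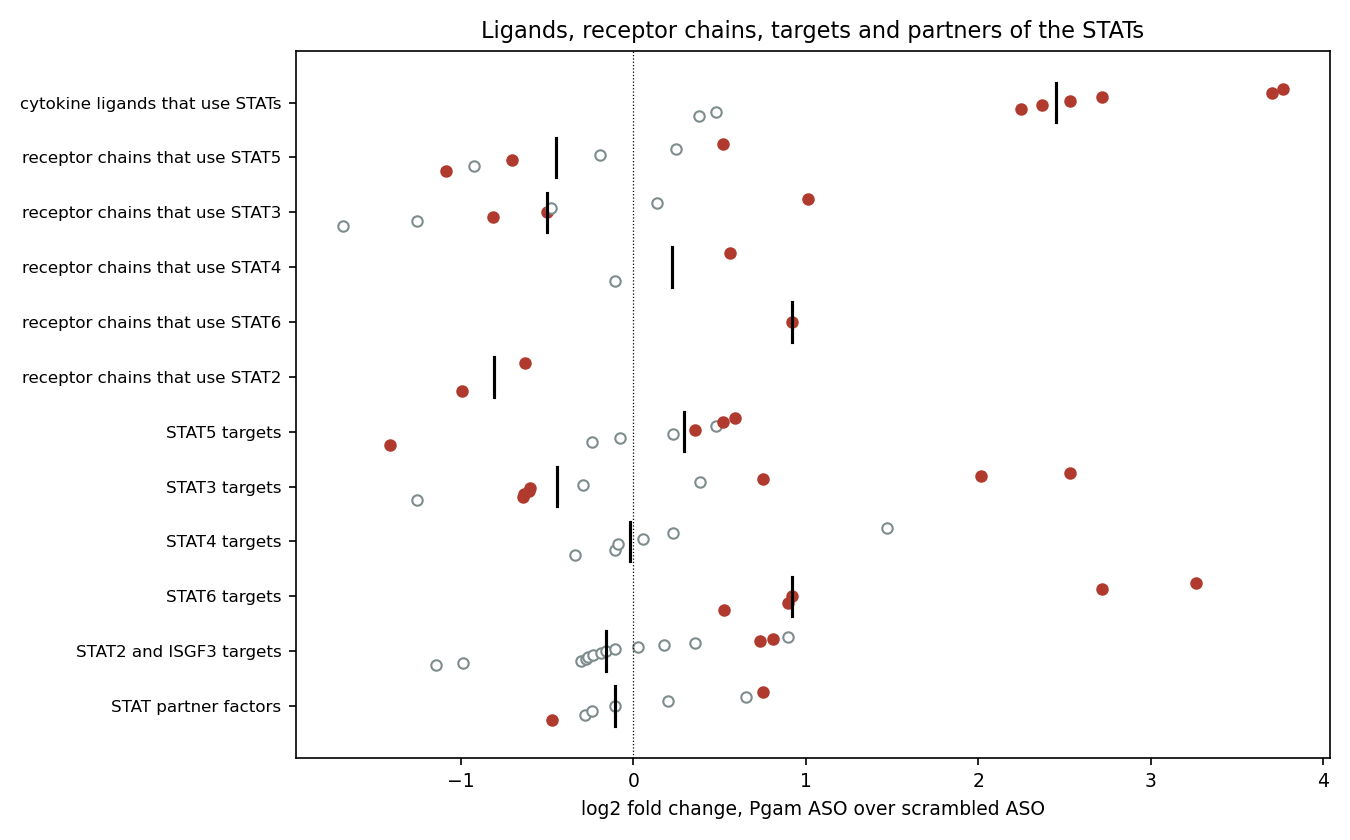
Log2 fold change (horizontal axis) of each tested ligand, receptor chain, target and partner gene, 1 row for each list, with filled red points for an edgeR adjusted p under 0.05, open points for the rest and a black bar at the median of the list. The ligand and STAT6 target rows lie to the right of 0, and the rows of the other lists with more than 2 genes spread to both sides.

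Over all these lists, with each gene counted once, 87 of 97 genes were tested, 21 were called higher and 14 lower, where 8.03% and 9.15% of all tested genes were, and the median log2 fold change was -0.02. Of the 35 genes called, 12 kept their call in all 14 alternative settings. They were *Bcl3*, *Foxp3*, *Ifnar1*, *Il10ra*, *Il17a*, *Il2*, *Il4*, *Il4ra*, *Isg15*, *Lif*, *Maf* and *Socs5*. The calls lost were 18 without scrambled ASO replicate 1, 11 without scrambled ASO replicate 2, 1 without scrambled ASO replicate 3, 14 without *Pgam* ASO replicate 1, 22 without *Pgam* ASO replicate 2 and 4 without *Pgam* ASO replicate 3. With limma-voom, scaling by library size alone and the use of no filter, 2 were lost each. With replicate number as a block, 8 were lost. Calls were lost most often for *Crebbp*, in 7 of the 14 settings, and for *Bcl2*, *Cish* and *Ptpn1*, in 6 each, with edgeR adjusted p-values of up to 0.181, 0.187, 0.115 and 0.144. None of the 35 changed direction in any of these settings. Equally, 0 of 6 STAT genes were called in 13 of the 15 alternatives run for that count. An adjusted p under 0.01 is among the 13 and could only give 0.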

How the data were processed

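RNA-seq counts were analysed for 6 libraries from murine CD4 cells, 3 for each label. The authors deposited whole-number counts per Ensembl gene, without normalization, made with kallisto on GRCm38 per the submitters' processing notes; versions, annotation and strand use are not given in the sources used here. Symbols were found for 52073 of 56748 genes. In R 4.3.3, genes kept by filterByExpr of edgeR 4.0.16 (14936) were scaled by TMM and compared by its quasi-likelihood test (robust and two-sided), adjusting p over all of them by Benjamini-Hochberg with a threshold of 0.05. Intervals are 95% intervals of the same fit. Ratios of counts within a library were compared with exact permutation tests. The procedure was tested on simulated data.

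The members and lists were chosen with earlier results of these data known. Genes named are the 6 members, *Pgam1*, *Pgam2* and *Foxp3*, every gene of pathway lists with 9 or fewer genes, called and most abundant genes of longer lists and of marker lists, and for each member the 3 genes of highest Pearson r over 6 libraries (log2 CPM with a prior count of 2). *Ifit1*, *Ifit3*, *Oas1a*, *Rsad2*, *Il10*, *Cd8b1*, *Cpa3*, *Ctla4*, the untested ligands, markers at 0 and Gm28177 were named after their values were seen. The paper calls the replicates biological, but neither it nor the labels say whether they came from separate mice, so p-values may measure only the spread between these cultures. Pairs of libraries differed by a chi-square per degree of freedom of 7.43 to 26.8 within a label and 17.1 to 87.4 between labels, and none was treated as a duplicate.

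Alternatives were DESeq2 1.42.0, limma-voom (limma 3.58.1), RLE factors, scaling by library size alone, removal of ribosomal and mitochondrial genes, either no low-count filter or at least 10 counts in every library, a replicate block, omission of each library in turn, an adjusted p under 0.01, summing of genes that share at least 10% of 31-base stretches and, for ratios, 1 added to each count or either *Stat5* gene alone.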

Additional observations from a re-analysis of the deposited data

How the results depend on the processing

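All 6 STAT genes except *Stat5a* kept the sign of their log2 fold change in every setting. Of the STAT genes, 0 were called in every setting except library size alone, with 1 (*Stat5b*, -0.30, adjusted p = 0.0481), and with libraries left out, where the count ran from 0 to 2. With a library left out, the log2 fold change ran from -0.30 to -0.20 for *Stat5b*, from -0.39 to -0.20 for *Stat4* and from -0.12 to 0.064 for *Stat5a*. *Stat5a* was -0.0067 with limma-voom, -0.036 by library size alone, -0.011 with at least 10 counts in every library, -0.0069 with the replicate block and -0.16 when summed with *Stat5b*. The *Stat3* ratio differed by -0.073 with *Stat5a* alone below it. Over all genes, 2565 calls became 453 at an adjusted p under 0.01, 1235 with the replicate block, and between 391 and 3484 with a library left out. DESeq2 called 3078 genes, limma-voom 2529, and no filter 3732. Deviations from the group mean had r of 0.05, -0.03 and -0.24 for equal replicate numbers, and scrambled ASO replicates 2 and 3 were most alike in this to *Pgam* ASO replicates 3 and 1 (r of 0.28 and 0.218), so the numbers were not taken to pair the libraries. With the replicate block, 0 of 6 STAT genes were called, and log2 fold changes were 0.17 for *Stat2*, -0.08 for *Stat3*, -0.30 for *Stat4*, -0.26 for *Stat5b* and -0.12 for *Stat6*. Keeping the replicate block in the exact test, which cannot alter the ratio differences of 0.08 and 0.25, gave p = 0.5 for both ratios, where the second had 0.2. With 3 pairs, the blocked exact test cannot give a p under 0.25, so its p cannot be set against 0.2. The block took the call from 8 of the 35 pathway genes called (*Cish*, *Crebbp*, *Il10rb*, *Il12rb1*, *Il15ra*, *Jak1*, *Ptpn1* and *Socs3*). The causes of these changes were not tested.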
